A study of Rattus norvegicus with 10 samples.

Results

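The 10 genes described here are reported miR-146a targets or neighbours of those targets in Toll-like and interleukin-1 receptor signalling: Tlr4, Tlr2, Myd88, Irak4, Irak1, Irak2, Traf6, Tab2, Card10 and Fadd. They were chosen by name, with earlier results of these data known. All probe sets carrying exactly 1 of these symbols were taken, which gave 14 of the 31099 probe sets on the array, with 4 for Traf6, 2 for Irak1 and 1 for each other gene. All 14 were above the floor of the values on at least 1 array and so were among the 27520 probe sets tested.

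RNA came from HSC-2, a line of hepatic stellate cells of the Wistar rat, grown in high-glucose DMEM with serum and antibiotics. The overexpressing lines were S1, S4 and S5, each a clone transfected to overexpress rno-miR-146a, and the controls were a line transfected with a scrambled sequence, which the series design calls GFPscr, and the untransfected line. Every line was hybridised at passage 42 and at passage 43, which gave 6 clone arrays and 4 control arrays. The labels name neither the promoter of the construct nor whether the scrambled line is a single clone, and the level of mature miR-146a was not analysed here. They also do not describe the 2 passages of a line as separate cultures, so p-values for single lines measure the spread between these arrays only, which may be technical.

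Toll-like receptors and the interleukin-1 receptor recruit the adaptor MyD88, which assembles the kinases IRAK4, IRAK1 and IRAK2. The IRAK kinases activate the ubiquitin ligase TRAF6, and TAB2 links the ubiquitin chains made by TRAF6 to the kinase TAK1, which switches on NF-kB. miR-146a is itself induced by NF-kB and represses IRAK1 and TRAF6, as established in human and mouse cells, and so acts as a feedback brake. Hepatic stellate cells carry TLR4 and respond to bacterial lipopolysaccharide with chemokines and with greater sensitivity to TGF-beta. The arrays measure transcripts; a microRNA can also lower protein without lowering the transcript, and protein was not analysed here.

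The sequences below show what the clones are labelled to overexpress and the family member that reads the same sites. Both mature strands are from RefSeq on the rat build GRCr8, written 5′ to 3′, with the seed, bases 2 to 8, in capitals.
rno-miR-146a-5p: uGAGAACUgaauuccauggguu
rno-miR-146b-5p: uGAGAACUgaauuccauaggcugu
Mature miR-146a-5p lies at chr10:28350053-28350074 on the minus strand and miR-146b-5p at chr1:255144874-255144897 on the plus strand. They were the only 2 of 724 mature rat miRNAs in that table with this seed. Over the 22 bases they share they differ at 2 positions, G18A and U21C, counted from the 5′ end with the miR-146a base first, and neither position is in the seed. A transcript site pairing with the whole seed reads AGUUCUC. Sites in the members' transcripts were not searched, and no probe set of the array is annotated to the gene of miR-146a.

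Array medians lay between 97.74 and 103.74 intensity units, and 14.6% of all values stood at the floor of 20 units, below which the deposited table gives no order. Of 12 measured stellate and myofibroblast markers, Vim was at 21124 to 24794 units and Col1a1 at 17936 to 24084. Gfap at 28.1 to 38.1 and Reln at 30.01 to 41.5 were near the floor. Lrat, listed with them but not among the 12, was at the floor on all arrays. Acta2, which encodes an actin of myofibroblasts, set the scrambled line apart, with 4682 to 6834 units in the clones, 1124 to 1195 in the scrambled line and 7715 to 9626 in the untransfected line. Macrophage and leukocyte markers, 12 of 17 measured, summed to 689 to 739 units in the clones, 744 to 779 in the scrambled line and 714 to 735 in the untransfected line. Ptprc, the pan-leukocyte phosphatase, was at the floor on 8 arrays and at most at 21.04 units, and Adgre1, Cd163 and Cd53 were at the floor on every array. The highest marker of that list, Laptm5, reached 165 units.

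**Figure D1:**
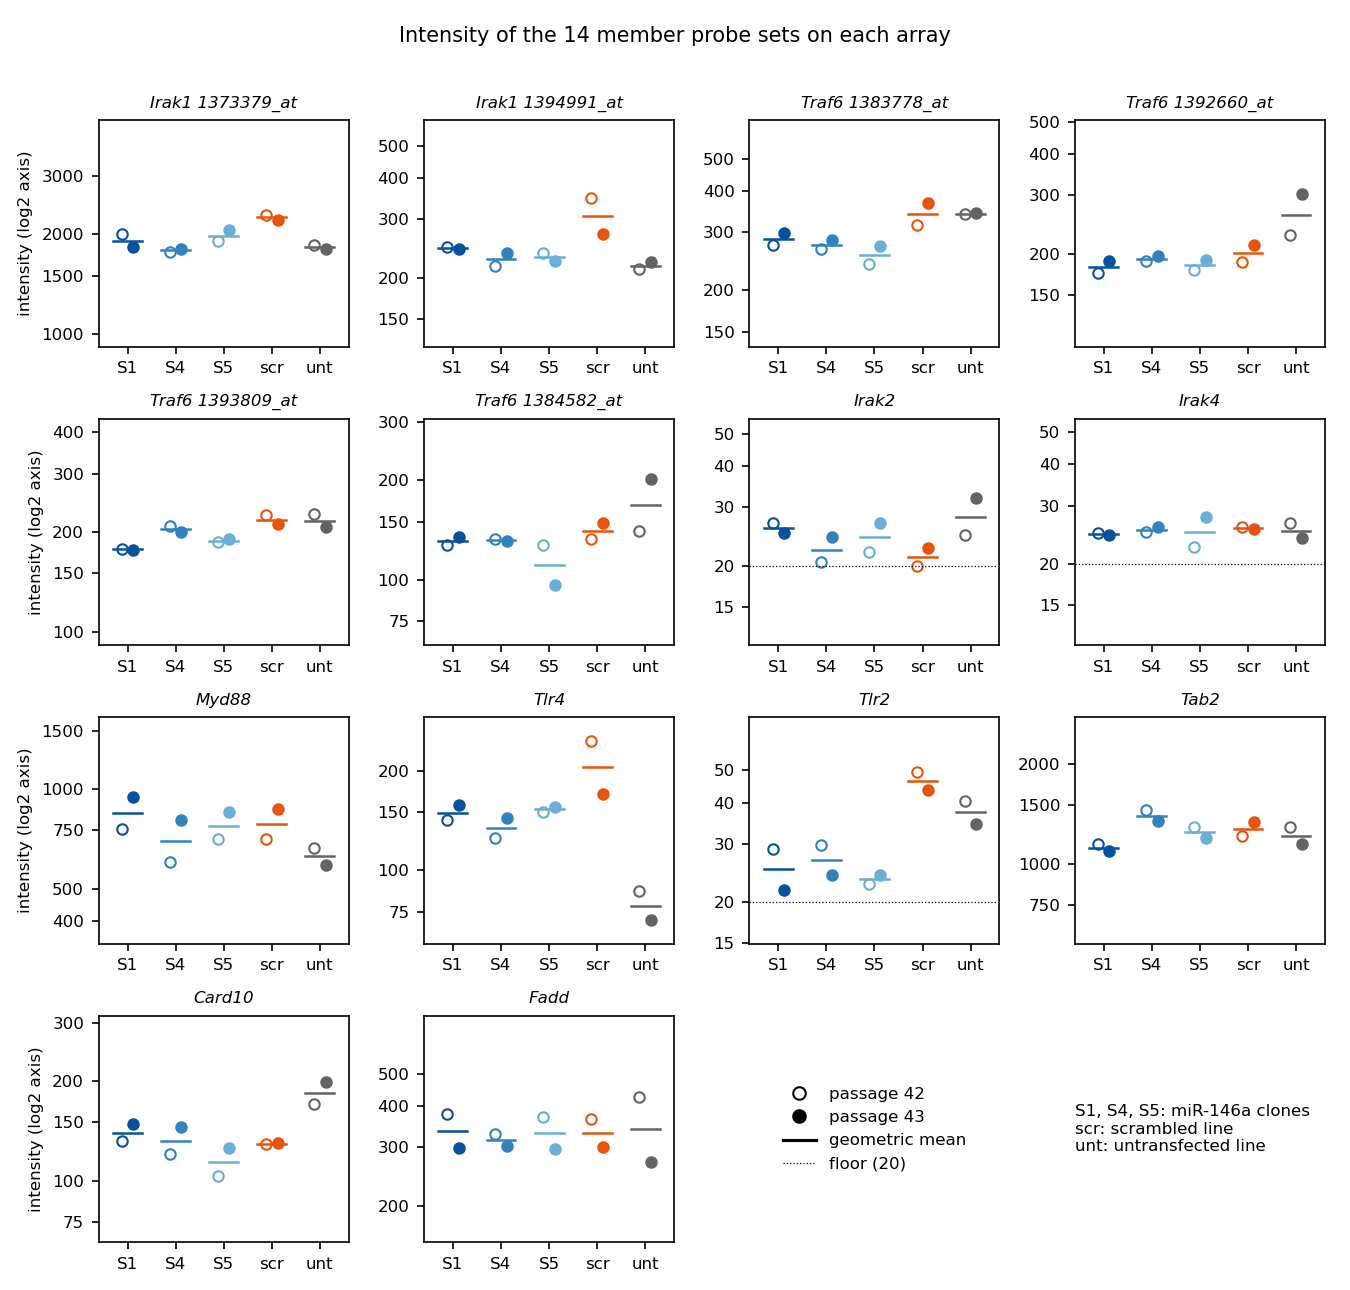
Intensity (vertical axis, log2 scale, in the deposited units) of each of the 14 probe sets in clones S1, S4 and S5, the scrambled line (scr) and the untransfected line (unt); open points are passage 42, filled points passage 43, bars the geometric mean of the 2, and the dotted line the floor of 20. The first Traf6 panel and the Tlr2 panel are the 2 in which all 6 clone points lie below all 4 control points, Tlr4 has the clones between the control lines, and Irak2, Irak4 and Tlr2 sit near the floor.

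With the line as the replicate, no member passed the test between the 3 clones and the 2 control lines. The limma test on 5 line means called 0 of the 14 probe sets at an adjusted p under 0.05, against 0.898% of all tested probe sets, and 2 of 14 at an unadjusted p under 0.05, against 15.4% of all. The median change was -0.12 on the log2 scale, against -0.01 over all tested probe sets, and 11 of 14 values were below 0, against 52.3% of all. The 4 Traf6 probe sets measure 1 gene, as do the 2 for Irak1, so these counts are not of separate genes. Without overlap, the clone arrays lay below the control arrays for 2 probe sets, against 3.44% of all, and above them for 0, against 4.06% of all.

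The values depended on which control line was kept. Without the scrambled line Traf6 by 1392660_at was at -0.49, Tlr2 at -0.58 and Tlr4 at 0.90. Without the untransfected line they were at -0.10, -0.89 and -0.49. Each of these fits leaves a single control line, so no calls are given for them. Below both scrambled arrays lay all 6 clone arrays for 6 of 14 probe sets, against 12.2% of all, and above them for 0, against 13.1%. The 6 were both Irak1 probe sets, 1383778_at and 1393809_at of Traf6, Tlr4 and Tlr2. Below both untransfected arrays they lay for 5, against 13.7% of all, namely the other Traf6 probe sets than 1393809_at, Tlr2 and Card10, and above them for 1, Tlr4, against 12.3%.

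Set against one control line at a time, each clone had few calls. Against the scrambled line limma called 1 of 14 probe sets in S1, 1 in S4 and 1 in S5, Tlr2 each time, beside 4.19%, 3.64% and 3.44% of all probe sets in either direction and 1.81%, 1.37% and 1.45% lower. Relative to the untransfected line it called 1 in S1, 0 in S4 and 2 in S5, beside 4.38%, 3.52% and 3.63% of all. These were Tlr4, higher in S1 and S5 as were 2.06% and 1.68% of all, and Card10, lower in S5 as were 1.95% of all. The shares in either direction would amount to 0.482 to 0.613 of 14 probe sets. An unadjusted p under 0.05 was reached by 5, 5 and 3 of 14 probe sets in S1, S4 and S5 against the scrambled line, beside 15.9%, 15.6% and 15.5% of all. It was reached by 5, 5 and 6 against the untransfected line, beside 19.5%, 17.7% and 18.9% of all. The comparisons share control arrays, so calls repeated across clones are not independent. In no clone was a member called against both control lines. Once passage entered as a replicate block, Tlr2 was called lower against both in S1 (limma adjusted p = 0.00762 against the scrambled and 0.0380 against the untransfected line) and in S5 (adjusted p = 0.00568 and 0.0254). With that block Traf6 by 1383778_at was also called lower against both in S5, no member was in S4, and such calls were made for 1.09% of all probe sets in S1 and 0.81% in S5. Without the block, of all probe sets, 0.763%, 0.796% and 0.6% were called higher against both in S1, S4 and S5, 0.6%, 0.396% and 0.4% lower, and 0.105%, 0.04% and 0.102% in opposite directions.

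The scrambled and the untransfected line also differed from each other, which sets how far the choice of control moves each value. Limma called 1 of 14 probe sets between them, Tlr4, beside 6.1% of all tested probe sets and 2.23% higher, and 6 of 14 had an unadjusted p under 0.05, beside 22.5% of all. No member passed the limma F test between the 3 clones, with 0 of 14 called and 0 at an unadjusted p under 0.05, against 0.0327% called and 2.72% of all at that unadjusted p.

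**Figure D2:**
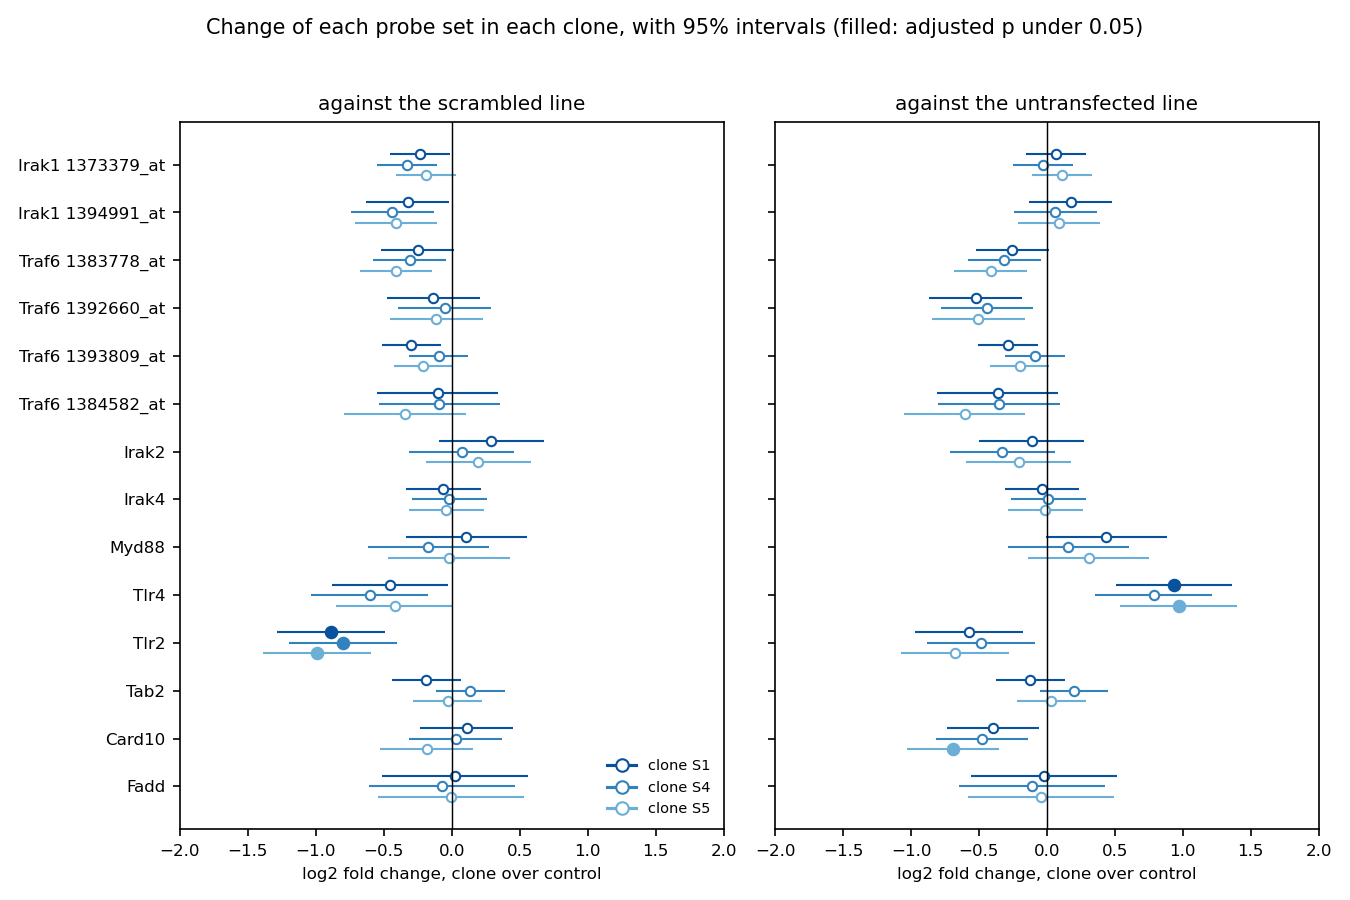
Log2 fold change of each probe set in clones S1, S4 and S5 (points, with 95% intervals from the limma fit on 10 arrays) over the scrambled line (left) and over the untransfected line (right); filled points passed an adjusted p of 0.05. Tlr2 is filled in all 3 clones on the left, Tlr4 lies below 0 on the left and above 0 on the right, and the Traf6 points lie below 0 in both panels.

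Tlr4, the receptor of lipopolysaccharide, was the member with the widest range between lines, and the clones stood between the controls. Its intensity at passages 42 and 43 was 142 and 158 units in S1, 126 and 144 in S4 as well as 151 and 156 in S5, against 246 and 170 in the scrambled line and 86.45 and 70.8 in the untransfected line. All 6 clone arrays were thus below both scrambled arrays and above both untransfected arrays. Because RNA was taken from bulk cultures, fewer cells with a transcript and less of it per cell cannot be told apart, here and for the other genes.

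Against the untransfected line Tlr4 rose by 0.94 in S1 (SE 0.19, limma adjusted p = 0.0339) and by 0.97 in S5 (SE 0.19, limma adjusted p = 0.0337). In S4 it was at 0.78 (limma adjusted p = 0.0678, and 0.0495 once passage entered as a replicate block). Set against the scrambled line, the 3 clones in that order were at -0.45, -0.60 and -0.42, with adjusted p between 0.149 and 0.336. Between the control lines, Tlr4 rose by 1.39 in the scrambled over the untransfected line (SE 0.19, limma adjusted p = 0.00669), a fold of 2.62, which is more than any clone differed from either. Clone means between the 2 control means were found for 3 of 14 probe sets, beside 21.3% of all.

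These calls rest on few arrays. Without the untransfected array of passage 43, the calls for S1, S5 and the scrambled line ended, with values of 0.79, 0.82 and 1.25. Leaving out an array of the clone itself also ended the calls. Without passage 42 and passage 43, values were 1.01 and 0.86 in S1 and 0.99 and 0.95 in S5. Each of these fits leaves a single array in a line, and calls over all probe sets were also fewer. Within a passage, Tlr4 was higher than in the untransfected line in 6 of 6 pairs, by 0.54 to 1.16, and lower than in the scrambled line in 6 of 6, at -0.97 to -0.11.

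Tlr2, the receptor of bacterial lipoproteins, was dim in every line and dimmest in the clones. It measured 29.0 and 21.8 units in S1, 29.7 and 24.1 in S4 as well as 22.6 and 24.2 in S5, against 49.6 and 43.7 in the scrambled line and 40.4 and 34.5 in the untransfected line. No clone array reached a control array, and the clone values were 1.09 to 1.49 times the floor. This was the only member called against the scrambled line.

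Relative to the scrambled line, Tlr2 fell by 0.89 in S1 (SE 0.17, limma adjusted p = 0.0303). It fell by 0.80 in S4 (limma adjusted p = 0.0481) and by 0.99 in S5 (limma adjusted p = 0.0230). The fall in S5 corresponds to a fold of 1.99, with a 95% interval of 1.51 to 2.62. With 32 units added before log2, the values were -0.46, -0.42 and -0.50 (adjusted p = 0.0429, 0.0606 and 0.0363). Over the untransfected line the values were -0.57, -0.48 and -0.67, which did not pass (adjusted p = 0.116, 0.198 and 0.0792) but did in S1 and S5 with the replicate block, at 0.0380 and 0.0254. Over the lines, Tlr2 averaged 4.65 ± 0.10 on the log2 scale in the clones (SD, n = 3) and 5.38 ± 0.22 in the control lines (SD, n = 2), a difference of -0.73 (SE 0.12, limma adjusted p = 0.0855), or -0.37 with 32 units added (adjusted p = 0.115).

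The calls for Tlr2 were lost without either scrambled array, with values of -1.08 to -0.71 over the 3 clones. In S4 and S5 they were also lost without either of the clone's own arrays, and in S1 without its passage 43 array (value -0.68). Over all fits without an array of the clone or the scrambled line, values were -0.95 to -0.65 in S4 and -1.08 to -0.90 in S5. Each fit that lost a call leaves a single array in a line, and calls over all probe sets were also fewer. Testing all probe sets, including those at the floor throughout, gave 0.0881, 0.116 and 0.0758 for the 3 clones. Of the 12 measured macrophage and leukocyte markers, 3 had all clone arrays below both scrambled arrays, as had 12.2% of all probe sets, and 0 had them above. Called among these was Csf1r, the receptor of macrophage colony-stimulating factor, at 20.1 to 25.5 units in the clones, 37.4 to 46.15 in the scrambled line and 23.2 to 25.4 in the untransfected line. Lyz2, a lysozyme of myeloid cells, was at 80.45 to 92.8 units in the clones, 99.2 to 101 in the scrambled line and 95.3 to 98.5 in the untransfected line, so below both. Itgam, an integrin of myeloid cells, was at 43.6 to 52.1 units in the clones, 53.5 to 55.97 in the scrambled line and 48.8 to 50.55 in the untransfected line. The parts played in the Tlr2 result by other cells and by the floor were not tested.

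Myd88, the adaptor shared by the Toll-like and interleukin-1 receptors, passed in no comparison between lines. Its intensities were 756 and 949 units in S1, 603 and 806 in S4 as well as 705 and 853 in S5, against 709 and 873 in the scrambled line and 662 and 592 in the untransfected line. Clone and control arrays overlapped. The change of the clones over the controls was 0.14 (SE 0.14, limma adjusted p = 0.693). By clone, S1, S4 and S5 were at 0.11, -0.17 and -0.02 against the scrambled line and at 0.44, 0.16 and 0.31 against the untransfected line.

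Irak4, the kinase that starts the cascade at MyD88, and Irak2, which sustains it, were near the floor in all lines. Irak4 lay between 22.55 and 27.6 units on the clone arrays and between 23.9 and 26.5 on the control arrays. Irak2 lay between 20.45 and 27.0 units in the clones and between 20 and 31.9 in the controls, with the scrambled array of passage 42 at the floor. Neither passed in any comparison, and the clones against both controls were at -0.03 for Irak4 and -0.01 for Irak2 (limma adjusted p = 0.877 and 0.977). So close to the floor, a further decrease would not show in these values.

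Irak1, the kinase best known as a miR-146a target, lay below the scrambled line and close to the untransfected line in the clones, with no comparison past the test. Probe set 1373379_at, the brighter of its 2, read 2001 and 1831 units in S1, 1771 and 1814 in S4 as well as 1905 and 2057 in S5, against 2292 and 2215 in the scrambled line and 1854 and 1805 in the untransfected line. The clone arrays all lay below the scrambled arrays and on both sides of the untransfected arrays. Probe set 1394991_at read 247 and 244 units in S1, 217 and 237 in S4 as well as 237 and 225 in S5, against 349 and 271 in the scrambled line and 212 and 223 in the untransfected line. The scrambled line was again the highest and the clone arrays lay below it, but here the untransfected line had the lowest mean, whereas by 1373379_at S4 did.

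The differences from the scrambled line were -0.24, -0.33 and -0.19 in S1, S4 and S5 by 1373379_at and -0.33, -0.44 and -0.41 by 1394991_at, with adjusted p from 0.125 to 0.416. From the untransfected line they were 0.07, -0.03 and 0.11 by the first and 0.17, 0.06 and 0.09 by the second. Between the control lines themselves Irak1 was at 0.30 and 0.50 in the scrambled over the untransfected line by these probe sets (limma adjusted p = 0.113 and 0.0670). The second passed with the replicate block (adjusted p = 0.0464). Against both controls, 1373379_at was at -6.72%, with an interval of -23.7% to 13.99%, and 1394991_at at -9.34%, with an interval of -31.7% to 20.3%. The 2 probe sets followed each other over the 10 arrays (Pearson r = 0.810, a description, since arrays of one line are not independent).

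Traf6, the ubiquitin ligase below the IRAK kinases and the other classic target, had lower line means in the clones than in the mean of the controls by every probe set, with no value past the test. By 1383778_at, its brightest, it read 275 and 297 units in S1, 266 and 284 in S4 as well as 241 and 273 in S5, against 316 and 367 in the scrambled line and 340 and 343 in the untransfected line. The highest clone array was below the lowest control array, and the 2 control lines had nearly the same mean. The line means were 8.09 ± 0.08 on the log2 scale in the clones (SD, n = 3) and 8.41 ± 0.0031 in the control lines (SD, n = 2). That is a difference of -20.2%, with a 95% interval of -30.1% to -8.89% before adjustment for the number of probe sets (limma adjusted p = 0.149).

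The other 3 Traf6 probe sets had overlapping arrays. By 1392660_at Traf6 lay between 175 and 196 units in the clones, against 188 and 213 in the scrambled line and 227 and 303 in the untransfected line. By 1393809_at it lay between 177 and 208 units in the clones and between 207 and 226 in the controls, with S4 at passage 42 just above the lowest control array. By 1384582_at it lay between 96.3 and 135 units in the clones and between 133 and 202 in the controls. In the first and last of these the untransfected array of passage 43 was the highest of all.

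Over the 4 Traf6 probe sets the change of the clones against both controls ran from -0.33 to -0.20, with a median of -0.30 and adjusted p from 0.149 to 0.369. Without the untransfected line it was -0.10 by 1392660_at and -0.18 by 1384582_at, and without passage 43 it was -0.19 and -0.080 by these. Without passage 42 it was -0.54 by 1384582_at. Against the scrambled line the 4 values ran from -0.30 to -0.10 in S1, from -0.31 to -0.05 in S4 and from -0.41 to -0.11 in S5. Over the untransfected line they ran from -0.52 to -0.25, from -0.44 to -0.09 and from -0.60 to -0.20. Blocked by passage, 1383778_at passed in S5 against the scrambled line (adjusted p = 0.0450) and against the untransfected line (adjusted p = 0.0411). With that block 1392660_at passed against the untransfected line in S1 and S5 (adjusted p = 0.0317 and 0.0398), while its values against the scrambled line were -0.14, -0.05 and -0.11. Which stretch of the transcript each probe set reads was not analysed here.

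The Traf6 probe sets placed the 2 control lines differently. The scrambled over the untransfected line was at -0.0043 by 1383778_at and 0.01 by 1393809_at, but at -0.39 by 1392660_at and -0.26 by 1384582_at. Pairs of Traf6 probe sets correlated at 0.344 to 0.799 over the 10 arrays. For the same passage, 1383778_at was lower in the clone in 6 of 6 pairs against each control line, at -0.43 to -0.20 against the scrambled and -0.50 to -0.21 against the untransfected line.

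**Figure D3:**
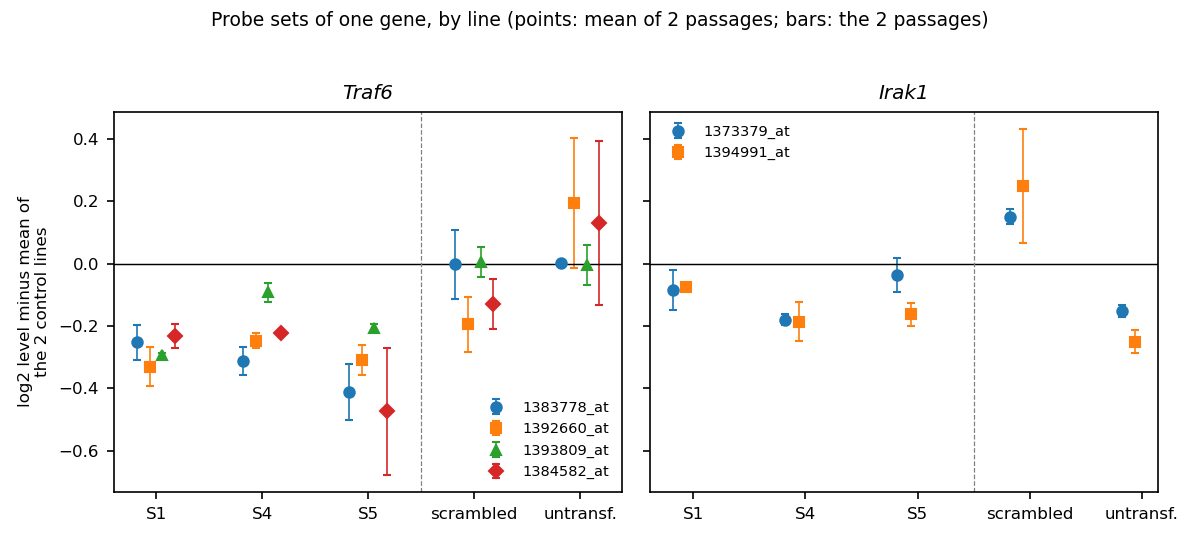
Log2 level of each Traf6 probe set (left, 4 probe sets) and each Irak1 probe set (right, 2 probe sets) in every line, relative to the mean of the scrambled and untransfected lines; points are the mean of 2 passages and bars reach the 2 passages. Every Traf6 point of a clone lies below 0, whereas for Irak1 the scrambled line lies above the clones and the untransfected line near the lowest clone or below it.

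Tab2, the adaptor that joins TRAF6 to TAK1, passed in no comparison. It read 1144 and 1091 units in S1, 1453 and 1343 in S4 as well as 1294 and 1198 in S5, against 1210 and 1334 in the scrambled line and 1290 and 1147 in the untransfected line. S1 was the lowest line and S4 the highest, with the controls between them. The change of the clones over the controls was 0.358%, with an interval of -17.7% to 22.3%.

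Card10 encodes a scaffold that couples G protein-coupled and growth factor receptors to NF-kB through BCL10 and MALT1, and in human cells it is a reported miR-146a target. It read 132 and 149 units in S1, 120 and 145 in S4 as well as 103 and 126 in S5, against 129 and 130 in the scrambled line and 171 and 198 in the untransfected line. All clone arrays were below the untransfected arrays, and they lay on both sides of the scrambled arrays.

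Relative to the untransfected line, Card10 fell by 0.69 in S5 (SE 0.15, limma adjusted p = 0.0477). It was at -0.40 in S1 and -0.48 in S4 (adjusted p = 0.192 and 0.141, the second 0.0364 with the replicate block). With the scrambled line as the control, the clones were at 0.11, 0.03 and -0.18. The scrambled line itself was at -0.51 relative to the untransfected line (limma adjusted p = 0.0889, and 0.0209 with the replicate block). The call in S5 was lost without its passage 42 array (-0.55), without its passage 43 array (-0.83) and without the untransfected array of passage 43 (-0.58). Each of these fits leaves a single array in a line, and calls over all probe sets were also fewer.

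Fadd, the adaptor of death receptors, which in human T cells is a reported miR-146a target, had the narrowest spread between lines next to Irak4. Its line means spanned 0.11 on the log2 scale and its passages differed by up to 0.65. It read 378 and 299 units in S1, 329 and 302 in S4 as well as 370 and 296 in S5, against 365 and 301 in the scrambled line and 427 and 272 in the untransfected line. In each line passage 43 was below passage 42. The change of the clones over the controls was -2.56%, with an interval of -13.2% to 9.45%.

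The drop of Fadd between passages led to a comparison added after the values were seen, of passage 43 with passage 42 and line as a block. Limma called 0 of the 14 probe sets, beside 5.52% of all tested, and 6 of 14 had an unadjusted p under 0.05, beside 21.4% of all. Fadd was at -0.34 (SE 0.08, limma adjusted p = 0.0593). It was lower at passage 43 in 5 of 5 lines, as were 11% of all probe sets. Higher in all 5 were 3 member probe sets, 2 of those for Traf6 and that for Card10, as were 9.57% of all. Myd88 was higher at passage 43 in all lines but the untransfected one, by 0.28 to 0.42, and at -0.16 in that line. Without the untransfected line, Myd88 was at 0.33 between passages (limma adjusted p = 0.0327). Leaving out the line that goes the other way favours such a call, and 1698 of 27520 probe sets were called in that fit.

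**Figure D4:**
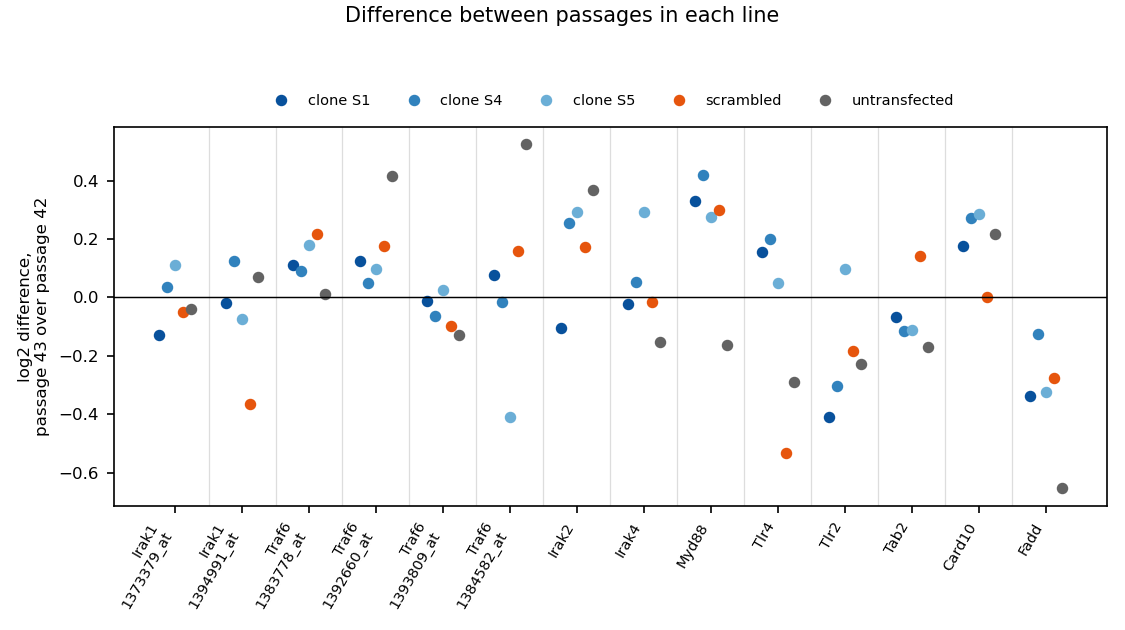
Log2 difference of passage 43 over passage 42 (vertical axis) for each of the 14 probe sets, with 1 point for each of the 5 lines. All 5 Fadd points lie below 0, from -0.65 to -0.12, and 4 of 5 Myd88 points lie above 0.

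The wider pathway was read from 65 other genes of Toll and interleukin-1 receptor signalling, of which 47 were tested, 2 were at the floor on all arrays and 16 had no probe set of their own. Limma called 0 of the 47 for the clones against both controls, beside 0.898% of all tested probe sets, and their median was -0.04 against -0.01 over all tested probe sets. Against the scrambled line 3 fell in S1, 1 rose and 2 fell in S4, and 2 fell in S5. Of all probe sets, 1.81%, 1.37% and 1.45% fell in S1, S4 and S5 in that comparison, and 2.38% and 2.27% rose in S1 and S4. Measured over the untransfected line 3 fell in S1, 1 rose and 1 fell in S4, and 2 fell in S5. In this comparison 2.32%, 1.71% and 1.95% of all probe sets fell in S1, S4 and S5, and 1.82% rose in S4.

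Against both control lines, 1 of the 47 was called lower in S1, beside 0.6% of all probe sets, and 0 higher, beside 0.763%. In S4 1 was called higher, beside 0.796%, and 0 lower, beside 0.396%. In S5 0 were called higher and 0 lower, beside 0.6% and 0.4%. Irak3, an inactive kinase that brakes signalling from MyD88, read 194 and 180 units in S1, against 306 and 321 in the scrambled line and 412 and 308 in the untransfected line. It fell in S1 by 0.75 against the scrambled (limma adjusted p = 0.0428) and by 0.93 against the untransfected line (limma adjusted p = 0.0194). Its values against these lines were -0.24 and -0.43 in S4, then -0.52 and -0.70 in S5, none past the test. Irak3 was below all 4 control arrays on all 6 clone arrays, as were 3.44% of all probe sets. The same held in this list for Map3k3, Il1r2, Il1rap, Sarm1 and Peli1. Tnfaip3 was above all 4 control arrays on all 6 clone arrays, as were 4.06% of all.

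Tnfaip3, the ubiquitin-editing enzyme A20 that ends TRAF6 signalling and is induced by NF-kB, read 237 and 229 units in S4, against 76.8 and 118 in the scrambled line and 116 and 86.6 in the untransfected line. It rose in S4 by 1.29 against the scrambled (limma adjusted p = 0.0159) and by 1.22 against the untransfected line (limma adjusted p = 0.0215). In S1 it was at 0.58 and 0.51 and in S5 at 0.35 and 0.28, none past the test. The geometric means of Tnfaip3 were 142, 233 and 122 units in S1, S4 and S5. Between the 3 clones the limma F test for Tnfaip3 gave an unadjusted p of 0.00551 and did not pass after adjustment. Of all probe sets, 2.72% had an unadjusted p under 0.05 in that test.

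The other calls in the list depended on which control was used, and these genes were picked after their values were seen. Map3k3, a kinase of the NF-kB and MAP kinase pathways, lay between 218 and 253 units in the clones, against 529 and 594 in the scrambled line and 286 and 292 in the untransfected line, and was called lower in all 3 clones against the scrambled line. Il1r2, the decoy receptor of interleukin-1, followed the same order, at 20 to 23.0 units in the clones, against 88.3 and 139 in the scrambled line and 25.8 and 28.0 in the untransfected line. Map3k8, a kinase activated by Toll-like receptors, was at 20 to 21.6 units in the clones and at the floor on both scrambled arrays, against 35.7 and 37.6 in the untransfected line. It was called lower in all 3 clones against the untransfected line, where Il1rap, the shared co-receptor of the interleukin-1 family, was called lower in S1 and Sarm1, an adaptor of the same domain family, in S5.

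The genes whose levels followed Irak1 and Traf6 most closely over the 10 arrays were taken from 19188 other probe sets with 1 symbol. For Irak1 (1373379_at) they were Serpinb7, Tiam1 and Hist2h2be, with Pearson r of 0.966, 0.943 and 0.942. For Traf6 (1383778_at) they were Zswim4, Slc27a4 and Maco1, with r of 0.967, 0.963 and 0.954. The 10 points come in pairs of the same line, and the highest of many correlations is high by selection.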

How the data were processed

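Total RNA was hybridised to Affymetrix rat arrays after biotin labelling, per the labels' protocols. What the authors deposited are linear intensity values; the submitters' processing notes name RMA, with no version and no word on how log2 output became linear. From the 31099 probe sets, 3522 at the floor of 20 units throughout and 57 array controls were left out. Names came from the platform annotation, and all 14 member probe sets matched the GRCr8 gene table by gene identifier with 14 symbols unchanged.

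Log2 of the deposited intensity was tested with limma 3.58.1 in R 4.3.3 (lmFit, eBayes), with Benjamini-Hochberg adjustment over 27520 probe sets and a threshold of 0.05. Clones were compared with controls on 5 line means (3 residual degrees of freedom). For single lines and for differences between clones, the 10 arrays entered a fit with a coefficient for each line, leaving 5 residual degrees of freedom. Intervals are 95% and not adjusted. The procedure was tested on simulated data, drawn as independent noise with changes planted in the clones. No other differences between lines and no shared passage deviations were simulated, so that test does not cover them. Passage deviations of the 10 pairs of lines correlated at 0.136 to 0.648, all above 0.1, so passages pair the arrays. The main fits for single lines have no passage term, and their p-values leave this pairing out. The fit with passage as a replicate block is given beside them where it changes a call.

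Members and lists were chosen with earlier results of these data known. The rule named all member probe sets. It also named up to 8 pathway genes called the same way against both control lines in a clone, taking the probe set of highest mean, and the 3 best correlated genes for Irak1 and Traf6. Alternatives were quantile normalization, 32 units added before log2, no filter, a mean intensity of at least 50, trended robust variances, line as a random block, the replicate block, and leaving out arrays or lines. The number of arrays limits the precision. The marker lists of endothelium, hepatocytes and biliary epithelium had 0 calls among 5, 5 and 2 measured genes for the clones against both controls. Those of stellate cells and of macrophages had 0 among 12 each. Of all probe sets 0.898% were called in that comparison, so lists this short would have few calls in any case. In comparisons of single lines Acta2, Des and Csf1r were called.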

Additional observations from a re-analysis of the deposited data

Results flagged for a closer look

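One result stood apart among 28 groups of arrays examined, where chance alone would set apart about 1 group in 20. By the Traf6 probe set 1384582_at, clone S5 at passage 43 read 96.3 units, while the other 5 clone arrays lay between 128 and 135. The gap to the nearest clone array was 0.843 of the range of the clone arrays. Without that array, Traf6 by this probe set was at -0.14 in S5 against the scrambled line and -0.40 against the untransfected line, in place of -0.34 and -0.60. The change of the clones against both controls was then -0.24 in place of -0.31. The 3 other Traf6 probe sets showed no such array.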

How the results depend on the processing

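The clones against both controls had 0 member calls, and 0 when a clone or a passage was left out. Fits without a control line leave a single one and are not counted here. There were 2 calls with line as a random block and 2 when a passage replicate block was added, Traf6 1383778_at and Tlr2 both times. Over all 27520 probe sets these settings gave 1315 and 1205 calls, against 247. The correlation within lines that they used was 0.0485, and 0.210 with the replicate block. They thus treat arrays of a line largely as separate replicates, although the line carries the transfection. On line means the limma adjusted p was 0.149 for Traf6 by 1383778_at and 0.0855 for Tlr2. Against the scrambled line the count of 1 in each clone became 0 with no filter and with a mean intensity of at least 50, which removes Tlr2. With no filter, 616, 574 and 467 of all 31042 probe sets were called in S1, S4 and S5. In S4 the member count was 2 with quantile normalization and 0 with 32 added. Over all 27520 probe sets these gave 1052 and 924 calls, against 1002. In S5 the member count was 2 with the replicate block. Fits without an array leave a single array in its line, so their member calls are not counted here. Against the untransfected line the counts of 1, 0 and 2 in S1, S4 and S5 became 0 in S1 and S5 with 32 added and with no filter. Over all probe sets, 32 added gave 1174 and 894 calls in S1 and S5, and no filter gave 602 and 526. Quantile normalization gave 1 member call in S4, beside 1000 over all probe sets. With the replicate block the member counts became 3, 2 and 5. Over all 27520 probe sets that block gave 2439, 1904 and 2103 calls, against 1205, 970 and 999 without it. Member calls in fits without an array are again not counted. The replicate block ended no call and made none beyond those given in the results. Over all probe sets it gave 1845 calls in S5 against the scrambled line, where the main fit gave 948. Between the control lines it gave 3602, where the main fit gave 1679. The scrambled against the untransfected line had 1 member call, and 3 with the replicate block. The passage comparison had 0, and 0 to 1 without a line. Differences between clones gave 0 under every alternative run. Except where stated, the cause was not tested.

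Small changes of the clones against both controls changed sign when a line or passage was left out. Irak1 ranged from -0.25 to 0.050 by 1373379_at and from -0.39 to 0.11 by 1394991_at, Irak2 from -0.22 to 0.19, Irak4 from -0.12 to 0.069, Myd88 from -0.029 to 0.30, Tlr4 from -0.49 to 0.90, Tab2 from -0.076 to 0.085 and Fadd from -0.14 to 0.064. Tab2 was at -0.012 with quantile normalization. Traf6, Tlr2 and Card10 stayed below 0 in every alternative run. Without a line or passage, Traf6 ranged from -0.36 to -0.28 by 1383778_at and from -0.49 to -0.10 by 1392660_at. By 1393809_at it ranged from -0.25 to -0.15 and by 1384582_at from -0.54 to -0.080. Tlr2 ranged from -0.89 to -0.58 and Card10 from -0.52 to -0.015. Over all probe sets the 247 calls for the clones against both controls ranged from 14 to 1315 under other settings and from 0 to 2968 without a line or passage. Counts for single clones were 948 to 1205, against 467 to 2439 under other settings and 180 to 2357 without an array. For the scrambled against the untransfected line they were 1679, 1014 to 3602 and 608 to 3224, between clones 9, 4 to 25 and 4 to 8, and between passages 1520 and, without a line, 0 to 1698.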
